A study of Mus musculus with 15 samples.

Results

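The genes described here are 10 members of the inflammatory response, taken by symbol from the 26145 genes listed in every library: the chemokines Ccl2, Ccl3, Ccl4 and Ccl12, the cytokines Il1a, Il1b and Tnf, and the intracellular regulators Nfkbia, Nfkbiz and Socs3. All 10 were found once each. Droplet-based single-cell RNA sequencing had been performed on the dissociated prefrontal cortex (PFC) of male C57BL/6N mice, with 2 animals pooled in each adult library. The adult libraries (P60, 8 to 10 weeks) came from mice trained to self-administer saline or cocaine intravenously: saline at maintenance (libraries 2 and 3), cocaine at maintenance (1 and 4), saline at 48 h of withdrawal (5 and 7), cocaine at 48 h of withdrawal (6 and 8), saline at 15 days of withdrawal (11 and 12) and cocaine at 15 days of withdrawal (9 and 10). All adult mice had food training, a jugular catheter and daily sessions, with saline in place of cocaine for the controls. The remaining 3 libraries came from 4 mice of 3 weeks (P21) for which no such procedure is described, so age and the procedure cannot be told apart. Tissue of 2 mice was pooled in a replicate, so 4 mice make fewer pools than the 3 P21 libraries, and how they were divided among them is not given. No genetic modification is given for any group.

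Chemokines such as CCL2 and CCL12 draw monocytes through the receptor CCR2, and CCL3 and CCL4 also attract leukocytes. IL-1α, IL-1β and TNF are the classical first-wave cytokines of the innate response. All of them are transcribed under NF-κB, a transcription factor held inactive in the cytoplasm by the inhibitor IκBα, which Nfkbia encodes and which NF-κB itself induces. Nfkbiz encodes IκBζ, a nuclear co-regulator of secondary NF-κB targets, and Socs3 encodes a feedback inhibitor of cytokine signalling through JAK and STAT3. In the brain microglia are the resident macrophages and a known source of these ligands.

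The 4 chemokine members lie on chromosome 11 (NCBIM37 coordinates), each in a gene model of 3 exons. Ccl2 occupies 81849073 to 81850955 and Ccl12 81915347 to 81916902, both on the forward strand, with 2 genes in the 64391 bases between them. Ccl3 (83461346 to 83462857, reverse strand) and Ccl4 (83476086 to 83478185, forward strand) are neighbours 13228 bases apart. Il1a and Il1b are neighbours on the reverse strand of chromosome 2, 54597 bases apart. Tnf is on chromosome 17, Nfkbia on chromosome 12, Nfkbiz on chromosome 16 and Socs3 on chromosome 11. Annotated genes on the other strand overlap Ccl2, Il1a and Il1b. The closest other transcripts were Ccl7 for Ccl2 (72.0% identity over 257 bases) and Ccl8 for Ccl12 (70.2% over 339 bases).

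Promoter sequences of 7 of the 10 members were found in the RefSeq table (GRCm38.p6), and Ccl2, Ccl4 and Nfkbiz were not matched. The 250 bases before each start were searched on both strands for the NF-κB consensus, for the STAT consensus TTCNNNGAA, for the AP-1 consensus TGACTCA and for the TATA box TATAAA. Nfkbia and Socs3 are shown because they carry the match to the factor they restrain, and 4 of the 5 ligand promoters found because they hold a TATA box near the start. Ccl3, the other one, held none of the 4 motifs in this window. Capitals mark the NF-κB match in Nfkbia (chr12:55492648-55492897, reverse strand), the STAT match in Socs3 (chr11:117969367-117969616, reverse strand) and the TATA box in the last 60 bases before the start of Il1a (chr2:129309973-129310032, reverse), Il1b (chr2:129371140-129371199, reverse), Tnf (chr17:35202008-35202067, reverse) and Ccl12 (chr11:82101785-82101844, forward).
Nfkbia: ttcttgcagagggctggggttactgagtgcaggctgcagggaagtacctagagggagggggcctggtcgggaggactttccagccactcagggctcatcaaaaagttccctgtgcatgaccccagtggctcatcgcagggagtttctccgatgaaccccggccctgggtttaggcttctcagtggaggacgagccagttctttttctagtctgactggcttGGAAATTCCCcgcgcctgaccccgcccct
Socs3: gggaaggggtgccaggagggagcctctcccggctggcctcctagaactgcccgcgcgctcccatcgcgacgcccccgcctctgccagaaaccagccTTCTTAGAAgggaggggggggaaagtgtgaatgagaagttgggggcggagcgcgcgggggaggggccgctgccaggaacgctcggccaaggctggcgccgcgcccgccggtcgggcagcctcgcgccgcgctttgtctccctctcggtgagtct
Il1a: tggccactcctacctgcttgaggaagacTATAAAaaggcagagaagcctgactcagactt
Il1b: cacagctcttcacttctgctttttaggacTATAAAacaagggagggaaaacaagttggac
Tnf: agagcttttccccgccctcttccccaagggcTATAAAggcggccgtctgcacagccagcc
Ccl12: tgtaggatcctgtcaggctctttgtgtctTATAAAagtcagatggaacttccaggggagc
The TATA box started 32 bases before the start in Il1a, 31 in Il1b, 29 in Tnf and 31 in Ccl12, and 12.4% of all 32851 promoters in the table held one in the same window. The NF-κB match of Nfkbia started 29 bases and the STAT match of Socs3 154 bases before the start, and 7.25% and 7.02% of all promoters held such a match. The AP-1 consensus was found in Il1a alone among the 7 members, 12 bases before the start, against 4.46% of all promoters. These are matches of letters and were not tested as binding sites.

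Levels are given as CPM, the unique molecular identifiers (UMIs) of a gene summed over the cells of a class in a library and scaled to the same total in each sum, so each value is 1 library. UMIs count molecules from the 3' end and do not grow with transcript length. A cell was used where its deposited class and its deposited cluster named the same of 8 classes, which held for 34868 of 35360 retained cells, among them 1448 P60 and 182 P21 microglia. All 26 class markers checked were highest in their own class at both ages. Library totals ran from 8375172 to 42892922 UMIs, and the 4 libraries of 15 days held 2512 to 3784 retained cells against 1055 to 1830 in the other P60 libraries. No more than 27 barcodes of retained cells were shared between any 2 libraries, and no more than 40 of all deposited cells. Microglia had a median of 3213.5 UMIs per cell at P60 and 2851 at P21, and P21 libraries 2 and 3 held only 21 and 12 of them. P21 shares of microglial cells and UMIs therefore rest mainly on library 1 (149 cells). Mean CPM and the age test take each of the 3 P21 libraries as 1 sample, so they also rest on the libraries with few cells. Microglia of the 15-day libraries also differed from those of the other P60 libraries. Their 12 genes of resident microglia summed to 15229 to 17688 CPM, against 23031 to 28163 CPM in the other P60 libraries and 16202 to 19312.5 CPM at P21. The part of this difference in the member values was not tested.

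At P60 most UMIs of the 7 ligand genes came from microglia. Over the 12 P60 libraries the microglial level of Ccl4 was 6692 ± 1321 CPM (SD, n = 12), that of Ccl3 4883 ± 1280.0 CPM and that of Ccl12 1664 ± 1100.2 CPM. The remaining ligands were lower, at 630.3 ± 206 CPM for Il1a, 400.0 ± 162 for Tnf, 389.6 ± 179 for Ccl2 and 259 ± 160.2 for Il1b. Each of the 7 was highest in microglia in 12 of 12 P60 libraries. Together the 10 members made up between 1.56% and 3.38% of all microglial UMIs of a library. Of all Ccl3 UMIs counted at P60, 95.6% came from microglia, and the same share was 96.3% for Ccl4, 96.2% for Ccl12, 97.0% for Il1a, 95.1% for Tnf and 90.2% for Ccl2. Il1b stood lower at 70.1%. At P21, with 182 microglia, the shares were 91.3% for Ccl4, 89.1% for Ccl3, 87.2% for Ccl12, 83.9% for Tnf, 81.9% for Ccl2, 75.9% for Il1a and 45.3% for Il1b. Microglia were again highest for each ligand in 3 of 3 libraries but for Il1b, which had 0 UMIs in the microglia of P21 library 3. The classes were built from the same expression data, so these differences are descriptions and carry no test.

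The intracellular regulators were spread more widely. Nfkbia stood at 6531 ± 1107 CPM in microglia and at 1894 ± 285 CPM in endothelial cells (n = 12 for both), with microglia above endothelial cells in 12 of 12 libraries and endothelial cells above astrocytes in 11 of 11. Astrocytes had 156 ± 39.1 CPM (n = 11), mature oligodendrocytes 110.2 ± 38.2 CPM and excitatory neurons 39.2 ± 3.79 CPM. Only 39.8% of all Nfkbia UMIs came from microglia. The order below astrocytes was not stable, with mature oligodendrocytes above oligodendrocyte precursors (104.9 CPM) in 7 of 11 libraries and excitatory above inhibitory neurons (33.1 CPM) in 7 of 12.

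Nfkbiz followed the same first steps, with 764 ± 134 CPM in microglia, 110.2 ± 27.3 CPM in endothelial cells and 39.3 ± 16.7 CPM in oligodendrocyte precursors, each class above the next in every library that held both. Socs3 was the least microglial of the members. Its level was 265 ± 98.6 CPM in microglia, 127 ± 72.6 CPM in endothelial cells and 114 ± 112 CPM in oligodendrocyte precursors, and microglia were highest in 11 of 12 libraries. Endothelial cells exceeded oligodendrocyte precursors in 7 of 11 libraries, so these neighbours did not separate beyond their spread. Below them Socs3 was at 7.69 ± 4.83 CPM in astrocytes and under 1 CPM in both kinds of neuron.

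**Figure D1:**
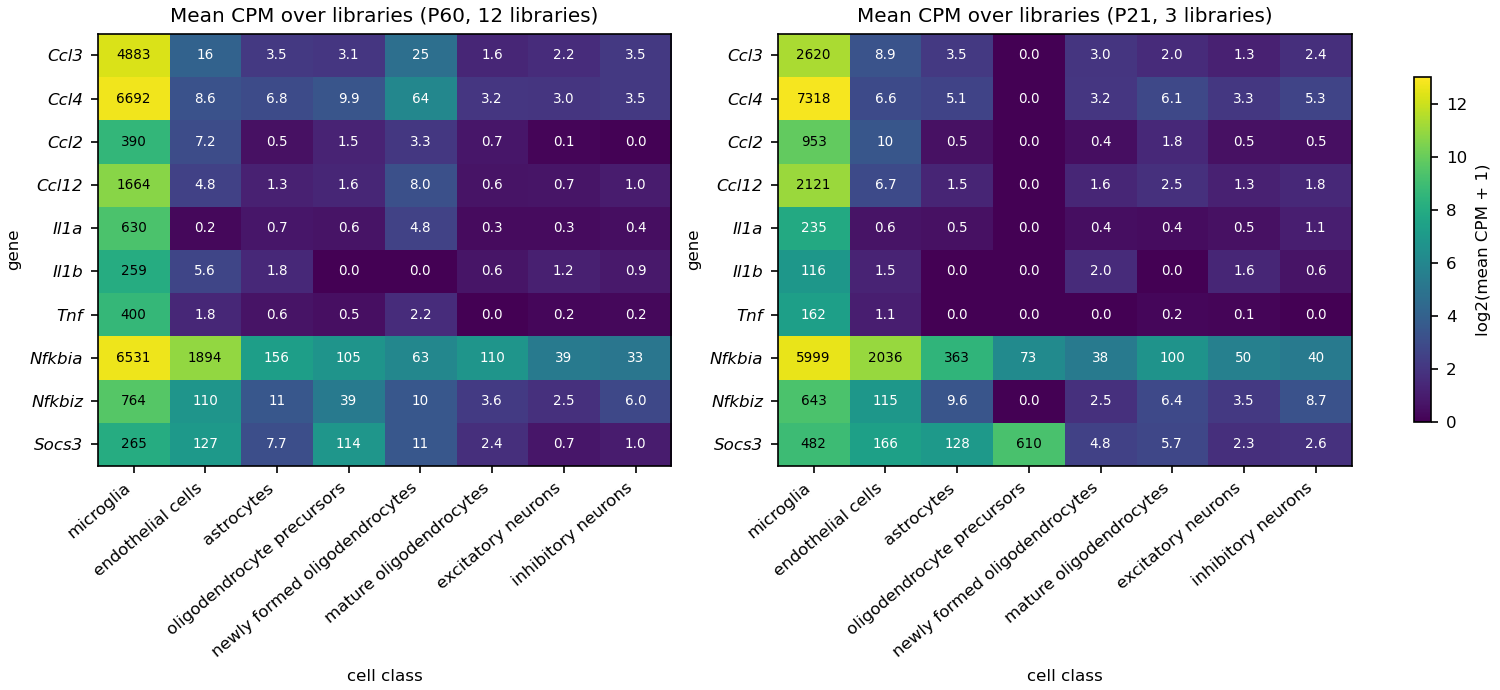
Mean CPM of the 10 members (rows) in the 8 cell classes (columns), at P60 on the left (11 or 12 libraries a class) and at P21 on the right (1 to 3 libraries), with the mean printed in each cell and the colour on a log2(mean CPM + 1) scale. The ligands are bright in the microglial column alone, while Nfkbia reaches 1894 CPM in P60 endothelial cells and Socs3 610.0 CPM in the single P21 library of oligodendrocyte precursors.

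Outside microglia the ligands were found in few cells. After each cell had been thinned to 2000 UMIs, Ccl3 was found in 77.8% of 1326 P60 microglia and Ccl4 in 75.4%, against 0.582% and 0.762% of excitatory neurons, which are not known as a source of either. The median depth was 3213.5 UMIs in microglia and 13622 UMIs in excitatory neurons before thinning, and without thinning Ccl3 was found in 78.8% of microglia. Endothelial cells held Ccl3 in 2.93% and Ccl4 in 1.44%, both above the shares in excitatory neurons, and whether stray molecules or expression gave them was not tested. Newly formed oligodendrocytes had the second highest mean of Ccl4, at 64.0 CPM, but the median over 11 libraries was 6.12 CPM, and library 6 stood at 521 CPM with all 52 of its Ccl4 UMIs in 1 of 19 cells.

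The members differed in how many microglia carried them. Nfkbia was detected in 97.1% of thinned P60 microglia, Nfkbiz in 70.4%, Ccl12 in 65.0% and Il1a in 62.6%. Socs3 was found in 37.0%, Tnf in 35.9%, Ccl2 in 19.7% and Il1b in 15.8%. A microglial cell carried a median of 6 of the 10 members, and 6 of 1326 cells (0.452%) carried none. These shares fall with the depth to which cells are thinned and count cells with a UMI, not cells that express a gene. The tissue had been dissociated with papain, and cell handling is known to induce immediate-early and stress genes. The 14 such genes listed summed to 21161 CPM in P60 microglia, and 99.9% of the 1448 cells held a UMI of them. The part of handling in the microglial levels and shares of the members was not tested.

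Some members were found more often in microglia that held another member than in those that did not. Ccl3, the neighbour of Ccl4 in the genome, was detected in 84.6% of the 1000 P60 microglia with Ccl4 and in 56.7% of the 326 without it. At P21 the same shares were 71.6% of 116 cells and 45.9% of 37 cells. Ccl2 was found in 23.3% of cells with Ccl12 and in 12.9% of those without. Il1a and Il1b, also neighbours in the genome, were less tied, with Il1a in 67.5% of cells with Il1b and in 61.7% of cells without. Nfkbiz was found in 72.0% of the 1287 cells with Nfkbia and in 17.9% of the 39 cells without. Cells of 1 library share its preparation, so these shares are descriptions.

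Ccl2 and Il1b were concentrated in a few groups of microglia. The deposited clustering divides P60 microglia into 8 clusters, each with cells from all 12 libraries, and was made from these same genes. In cluster 2 Ccl2 stood at 1674 CPM and was found in 97.6% of 208 cells, while in cluster 6 it stood at 14.4 CPM and was found in 1.58% of 253 cells. Cluster 2 also had the highest Ccl12, at 2570.1 CPM. Il1b was highest in cluster 8, at 891 CPM and in 66.99% of 103 cells, and was next at 528 CPM in cluster 1 and 437 CPM in cluster 7.

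Cluster 1 differed from the other microglia. Its Ccl3, Ccl4, Ccl12, Il1a, Tnf, Nfkbia, Nfkbiz and Socs3 were the lowest of the 8 clusters, with Ccl3 at 2744 CPM. Markers of monocytes and neutrophils were high in it, with Plac8 at 1548 CPM, S100a8 at 958 CPM and Ccr2 at 259 CPM. P2ry12, a receptor of resident microglia, was at 1636 CPM against 1883 to 3246 CPM in the other clusters. Over all microglia of a library S100a8 was at 1222 CPM in library 8 and at most at 6.64 CPM in any other. P2ry12 likewise ran from 1451 CPM in library 11 to 3934 CPM in library 5 among the P60 libraries. The part of monocytes or neutrophils in the Il1b of cluster 1 was not tested.

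**Figure D2:**
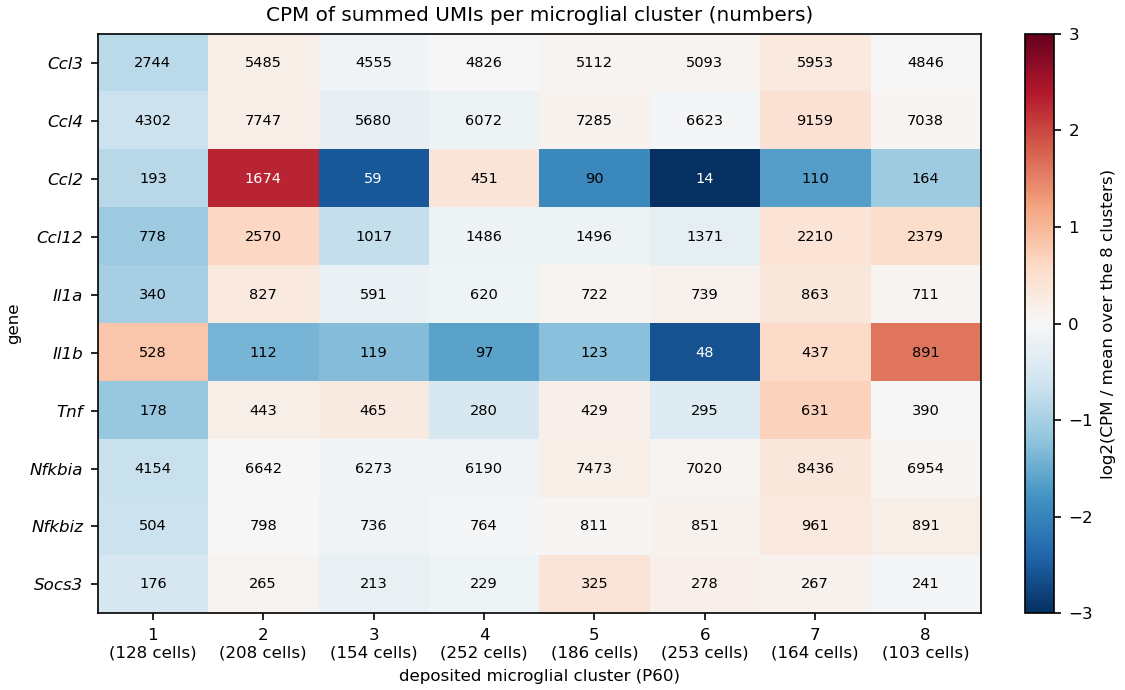
CPM of each member (rows) in the 8 deposited P60 microglial clusters (columns, with their numbers of cells), summed over the 12 libraries, with colour as log2 of the CPM over the mean of the 8 clusters. Ccl2 is concentrated in cluster 2 (1674 CPM) and Il1b in clusters 8, 1 and 7, while the other 8 members vary less between clusters.

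Endothelial Nfkbia also varied between the 13 deposited endothelial clusters. It was highest in cluster 12, at 3906 CPM, and in cluster 8, at 3032 CPM, and lowest in cluster 13, at 1067 CPM. Nfkbiz was highest in the same clusters 12 and 8, at 235 and 186 CPM. Socs3 was highest in cluster 2, at 259 CPM, the cluster with the smooth muscle genes Acta2 (935 CPM) and Myh11 (275 CPM). Cluster 3, with 81 cells, had the highest Ccl4 (139.7 CPM), Il1b (134 CPM), Ccl3 (109 CPM) and Ccl2 (33.5 CPM) of the 13. It also held Plac8 at 497 CPM and S100a8 at 525 CPM, markers of monocytes and neutrophils, whose part in these levels was not tested.

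The genes whose levels followed each member most closely were found over 93 sums of P60 libraries and classes, among 11978 genes, as Pearson's r of log2(CPM + 1). They were Tyrobp (0.952), Ptpn6 and Csf1r for Ccl3, and C1qc (0.960), Fcrls and C1qb for Ccl4. For Il1a they were Clec5a (0.980), P2ry6 and Emr1, and for Tnf Susd3 (0.973), Clec5a and Sfpi1. Ccl2 was followed by Csf2rb (0.925), AF251705 and Pilra, and Ccl12 by Il10ra (0.964), Gpr183 and Emr1. For Il1b they were Fcgr4 (0.956), Ms4a6b and Dennd1c. Nfkbia was followed by Cyba (0.928), Tgif1 and Tmem37, and Nfkbiz by Lyn (0.925), Ppp1r15a and B2m. Socs3 was followed by Irf1 (0.911), Ier2 (0.898) and its fellow member Nfkbiz (0.898). The sums share libraries and classes and are not independent points. Within microglia, over all 15 libraries and 5285 genes, ribosomal protein genes among them, the mean of the 10 members was followed most closely by Ddx21 (0.846), Srrt (0.846), Ly6e (0.832), Rps16 (0.824) and Ube2a (0.814). Over the 12 P60 libraries alone the same values were 0.748, 0.780, 0.721, 0.818 and 0.499.

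The first comparison asked how levels differ between adolescent and adult PFC, with the 6 P60 saline libraries set against the 3 P21 libraries. Each class was fitted with edgeR's quasi-likelihood test on all genes that passed a filter on low counts, and a gene was called at a Benjamini-Hochberg adjusted p under 0.05 and a change above 1.5-fold. Of 30 pairs of member and class tested in 7 classes, 2 were called and 10 had an unadjusted p under 0.05, where 11.6% of all genes tested were called. DESeq2 called 4. Both calls were Socs3, lower at P60 in astrocytes and in excitatory neurons. The unadjusted edgeR p was under 0.05 for 5 of 10 members in microglia, 1 of 8 in endothelial cells and 2 of 6 in excitatory neurons. Of all genes tested in these classes, 455 of 3993, 3049 of 10409 and 6310 of 13088 had such a p.

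In astrocytes Socs3 stood at 34.8, 217 and 133 CPM in the P21 libraries 1, 2 and 3. In the P60 saline libraries it was at 10.2 CPM in library 2, 0 in library 5, 5.63 in library 7, 10.1 in library 11 and 16.6 in library 12. The groups did not overlap, as was so for 10.6% of all genes in this class, and library 3 was left out because it held fewer than 10 astrocytes. The log2 fold change was -3.27 (SE 0.58, adjusted p = 0.0212 by edgeR's quasi-likelihood test), on 33 UMIs at P60 and 60 at P21, where 0.811% of genes were called in this class. The call was lost without library 7 (adjusted p = 0.0657 by edgeR), without P21 library 2 (0.0944), without P21 library 3 (0.0863), with P21 libraries 2 and 3 summed (0.0695) and against the 15-day saline libraries alone (0.0578), with log2 fold changes from -3.21 to -2.70. The call held without library 5 (log2 fold change -3.17) and without P21 library 1 (-3.95). Without library 2, 11 or 12 Socs3 did not pass the filter on low counts in astrocytes and had no value.

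In excitatory neurons Socs3 was scarce at both ages. It stood at 3.65, 1.87 and 1.501 CPM in the P21 libraries and between 0 and 1.05 CPM in the P60 saline libraries, with 64 UMIs at P60 and 134 at P21. The groups did not overlap, as was so for 33.6% of genes, and the log2 fold change was -1.83 (SE 0.41, edgeR adjusted p = 0.0043, and 0.0711 against the 15-day saline libraries alone), in a class where 18% of genes were called. Socs3 was found in 0.134% of thinned P60 saline and 0.642% of thinned P21 excitatory neurons, levels at which stray molecules are not told apart from expression.

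Immediate-early genes moved with Socs3 in the same classes. In astrocytes Ier2 fell by 3.28 on the log2 scale (edgeR adjusted p = 0.0495) and Jun by 1.80 (adjusted p = 0.0083). These were 2 of the 12 immediate-early and stress genes that passed the filter in astrocytes. In excitatory neurons 7 of 14 were called lower, among them Ier2 (log2 fold change -2.65), Junb (-2.06) and Fos (-1.03), and the heat shock genes Hspa1a and Hspa1b were called higher. Cell handling is known to induce such genes, and their part in the Socs3 result was not tested. Markers of endothelial cells and oligodendrocyte precursors, classes in which Socs3 is high, were also called lower at P60 in excitatory neurons. These were 3 of the 4 endothelial markers, Cldn5 (6.79 to 1.62 CPM, log2 fold change -1.91), Pecam1 (-1.44) and Flt1 (-0.83), and 1 of the 2 precursor markers that passed the filter, Pdgfra (-1.44). The astrocyte marker Aldoc was called higher, from 33.1 to 97.6 CPM (log2 fold change 1.59). The part of other cells or their free RNA in the excitatory Socs3 value was not tested. Oligodendrocyte precursors were not compared, as a single P21 library held at least 10 of them. It had 610.0 CPM of Socs3 in 14 cells, against 6.97 to 343 CPM in the P60 libraries. With library 12 left out, where a lone P21 library was allowed and assumed to vary like the P60 libraries, the log2 fold change of Socs3 in them was -3.74 (edgeR adjusted p = 0.0311), and it was called with no other library left out.

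In microglia all 10 members were tested and none was called, where 0.726% of genes were called. With microglia taken by the deposited class column alone, which adds 147 P21 cells that the clusters place in other classes, all members but Ccl2 and Socs3 were called higher at P60, with log2 fold changes from 1.04 (Ccl12) to 2.73 (Il1a), where 42.3% of genes were called. The added cells held the neuronal gene Snap25 at 1959 CPM, and their part in these values was not tested. Il1a came closest. It stood at 349, 238 and 118 CPM in the P21 libraries and at 802, 507, 586, 623, 507 and 634 CPM in the P60 saline libraries 2, 3, 5, 7, 11 and 12. The values of P21 libraries 1, 2 and 3 rest on 132, 10 and 3 UMIs. The groups did not overlap, as was so for 8.06% of genes in either direction. The log2 fold change was 1.26 (SE 0.30) with an edgeR adjusted p of 0.0746, and DESeq2 gave an adjusted p of 0.0272. It also passed with edgeR without library 11 (adjusted p = 0.0364), without the cells that held markers of other immune cells (0.0383) and with no filter on low counts (0.00261, log2 fold change 1.49).

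The log2 differences of the other ligands went both ways in microglia without passing the test. Ccl2 was at 1431, 285 and 1143 CPM in the P21 libraries and between 173 and 555 CPM in the P60 saline libraries, a log2 fold change of -1.25 (SE 0.42, edgeR adjusted p = 0.253) that turned to 0.51 by class column alone. With no filter on low counts it was -1.02 and called (edgeR adjusted p = 0.0466). Without the cells that held markers of other immune cells Ccl2 was at 1089, 155 and 463 CPM in the P21 libraries. In the P60 saline libraries it was then between 129 and 391 CPM. In P21 library 3 this removed 1 of 12 microglia. With all cells kept, Ccl2 was found in 45.8% of 153 thinned P21 microglia, 141 of them from library 1, and in 20.5% of 611 thinned P60 saline microglia. Tnf had a log2 fold change of 1.05 (SE 0.34, edgeR adjusted p = 0.205, and 1.25 with 0.0295 with no filter) and Ccl3 one of 0.88 (SE 0.31, edgeR adjusted p = 0.265). The Tnf values of P21 libraries 1, 2 and 3 rest on 97, 3 and 4 UMIs. Ccl4, the ligand with the highest level, differed by -0.06 (SE 0.24), from 7318 CPM at P21 to 6491 CPM at P60.

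Among the regulators in microglia, Socs3 stood at 820.1, 428 and 197 CPM in the P21 libraries, on 310, 18 and 5 UMIs. In the P60 saline libraries it was between 111 and 315 CPM. Its log2 fold change was -1.17 (SE 0.38, edgeR adjusted p = 0.213, and 0.28 by class column alone) and the groups overlapped. Nfkbia (0.24, SE 0.25) and Nfkbiz (0.27, SE 0.24) differed by about 1 standard error. Markers of other classes moved in these cells: Cldn5, an endothelial junction protein, was at 179 CPM in P21 and 7.91 CPM in P60 saline microglia, and Pdgfra, a receptor of oligodendrocyte precursors, at 60.6 and 0.553 CPM, both called. Their part in the member values was not tested.

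In endothelial cells 8 members were tested and none was called, where 12.4% of genes were called. Ccl3 had a log2 fold change of 0.92 (SE 0.31, edgeR adjusted p = 0.0573) from 8.91 CPM at P21. It was called without library 2 (edgeR adjusted p = 0.0400), without library 7 (0.0462), without P21 library 1 (0.0136, log2 fold change 1.34), against the 15-day saline libraries alone (0.0317), with no filter (0.0398) and by class column alone (0.0325), and stood at -0.03 by cluster alone. Nfkbia in endothelial cells had a log2 fold change of -0.27 (SE 0.14, edgeR adjusted p = 0.213) from 2036 CPM. In astrocytes Nfkbia was at 195, 532 and 363 CPM in the P21 libraries and between 126 and 196 CPM in the P60 saline libraries, with a log2 fold change of -1.08 (SE 0.28, edgeR adjusted p = 0.0883). It was called by DESeq2 (adjusted p = 0.0426) and with edgeR against all 12 P60 libraries (0.0256), by cluster alone (0.00202, log2 fold change -1.58), with no filter (0.00136), without library 12 (0.0479) and without P21 library 1 (0.00942). In excitatory neurons Nfkbia was lower at P60 by 0.29 on the log2 scale (edgeR adjusted p = 0.0157), a change under the 1.5-fold cutoff that was -0.64 and called by cluster alone (7.92e-05). Its groups did not overlap, as was so for 33.6% of genes in this class. Classes by cluster alone add P21 cells that the class column names microglia. They were 14 in astrocytes, with Nfkbia at 3222 CPM and the microglial gene C1qa at 4290 CPM. In excitatory neurons they were 64, with 861 and 1275 CPM, and in endothelial cells 33. Their part in the values by cluster alone was not tested.

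**Figure D3:**
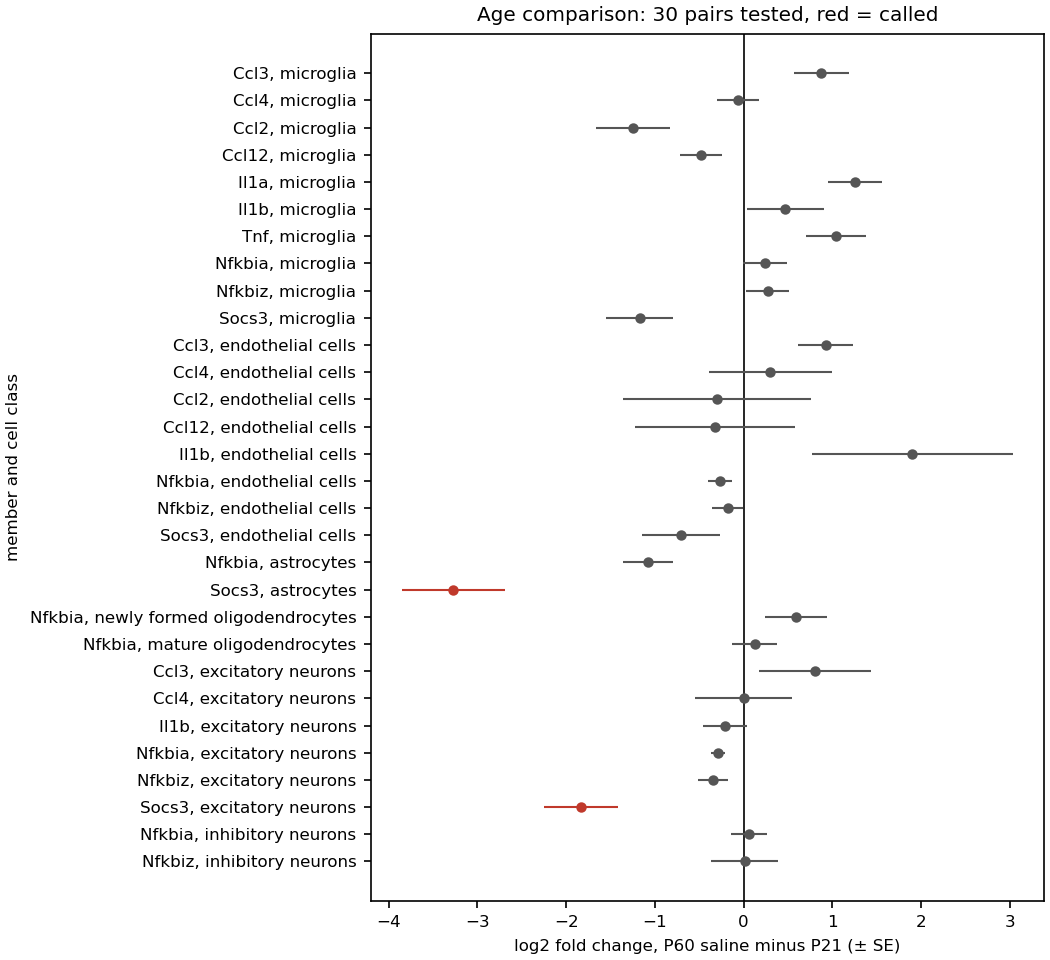
Log2 fold change from P21 (3 libraries) to P60 saline (5 or 6 libraries) with its standard error for the 30 pairs of member and class that were tested, called pairs in red. Both red points are Socs3, at -3.27 in astrocytes and -1.83 in excitatory neurons, and the microglial members lie between -1.25 and 1.26.

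The rest of the pathway was followed through lists of genes around the members. In microglia no gene of the other chemokines and cytokines (12 of 23 passed the filter), of the cytokine receptors (11 of 17), of the NF-κB subunits and signalling genes (8 of 17), of the feedback inhibitors (5 of 15) or of other NF-κB targets (7 of 13) was called by age. The median log2 fold change of the other chemokines and cytokines was -0.38, against 0.06 over all genes tested and 0.26 over the 10 members.

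Calls by age lay in the other classes. Among pairs of gene and class, 7 of 44 of the other chemokines and cytokines were called higher at P60 and 3 lower. For the cytokine receptors 3 of 38 were higher and 2 lower, for NF-κB signalling genes 1 and 1 of 48, for feedback inhibitors 4 and 1 of 42 and for other targets 4 and 1 of 29, where 11.6% of all genes tested were called in either direction. Il33, a nuclear cytokine released from damaged cells, rose in mature oligodendrocytes from 1.62 to 1235 CPM, a log2 fold change of 9.10 (SE 0.46, edgeR adjusted p = 1.66e-07). It was also called higher in astrocytes, from 24.2 to 166 CPM, and in endothelial cells, from 1.13 to only 5.61 CPM. Whether stray molecules or expression gave the endothelial value was not tested. Il18, a cytokine of the IL-1 family, rose in endothelial cells and in both kinds of neuron, and the chemokine Cxcl12 fell by 1.66 on the log2 scale in mature oligodendrocytes and by 1.46 in excitatory neurons. Markers also moved in mature oligodendrocytes. The astrocyte marker Aldoc rose from 58.5 to 212.5 CPM, Aspa had a log2 fold change of 0.64, Mog one of -0.88 and Mobp one of -0.82. Among immediate-early genes Ier2 was at -2.97 and Nr4a1 at 1.80. Their part in the Il33 and Cxcl12 values was not tested.

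In endothelial cells, where 12.4% of all genes were called by age, 2 of 11 cytokine receptors were called higher and 0 lower, and 2 of 8 other targets higher and 1 lower. Vcam1, an adhesion molecule for leukocytes, rose from 43.2 to 170.4 CPM (log2 fold change 1.84, SE 0.25), while Icam1, another, fell from 94.7 to 68.4 CPM. Il6ra and Il6st, the subunits of the IL-6 receptor, rose by 1.53 and 0.73 on the log2 scale. Ptgs2, the inducible cyclooxygenase, rose by 2.77, and Cd14, a co-receptor for bacterial lipopolysaccharide, by 2.54, both from under 2 CPM. The smooth muscle genes Tagln and Myh11, 2 of 6 such markers, rose in the same class by 1.85 and 1.66, as did the heat shock genes Hspa1b by 3.74 and Hspa1a by 1.46, and the part of such cells or of handling in these values was not tested.

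The second question was whether cocaine self-administration or withdrawal changed the members. Cocaine and saline libraries were compared at each time point within 1 fit over the 6 P60 groups, 2 libraries a group. At maintenance 0 of 27 pairs of member and class were called by edgeR, with 1 at an unadjusted p under 0.05, and DESeq2 called 0 with 2. At 48 h of withdrawal 0 of 35 pairs were called, with 5 at an unadjusted p under 0.05 (DESeq2 0 and 3), and at 15 days 0 of 35 pairs with 6 (DESeq2 0 and 5). The share of all genes called was 0.0115%, 0.00662% and 0.334% at the 3 time points. In microglia 178, 155 and 214 of 5208 genes had an unadjusted edgeR p under 0.05, against 0, 2 and 2 of 10 members. In endothelial cells these were 449, 553 and 478 of 10056 genes, against 1, 2 and 0 of 8 members. Over the 3 time points together 0 of 27 pairs were called with 2 at an unadjusted p under 0.05 (DESeq2 0 and 1), against 0.0069% of all genes. The difference of the effect between time points gave 0 of 27 with 5 (DESeq2 0 and 6), against 0.0115% of all genes.

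**Figure D4:**
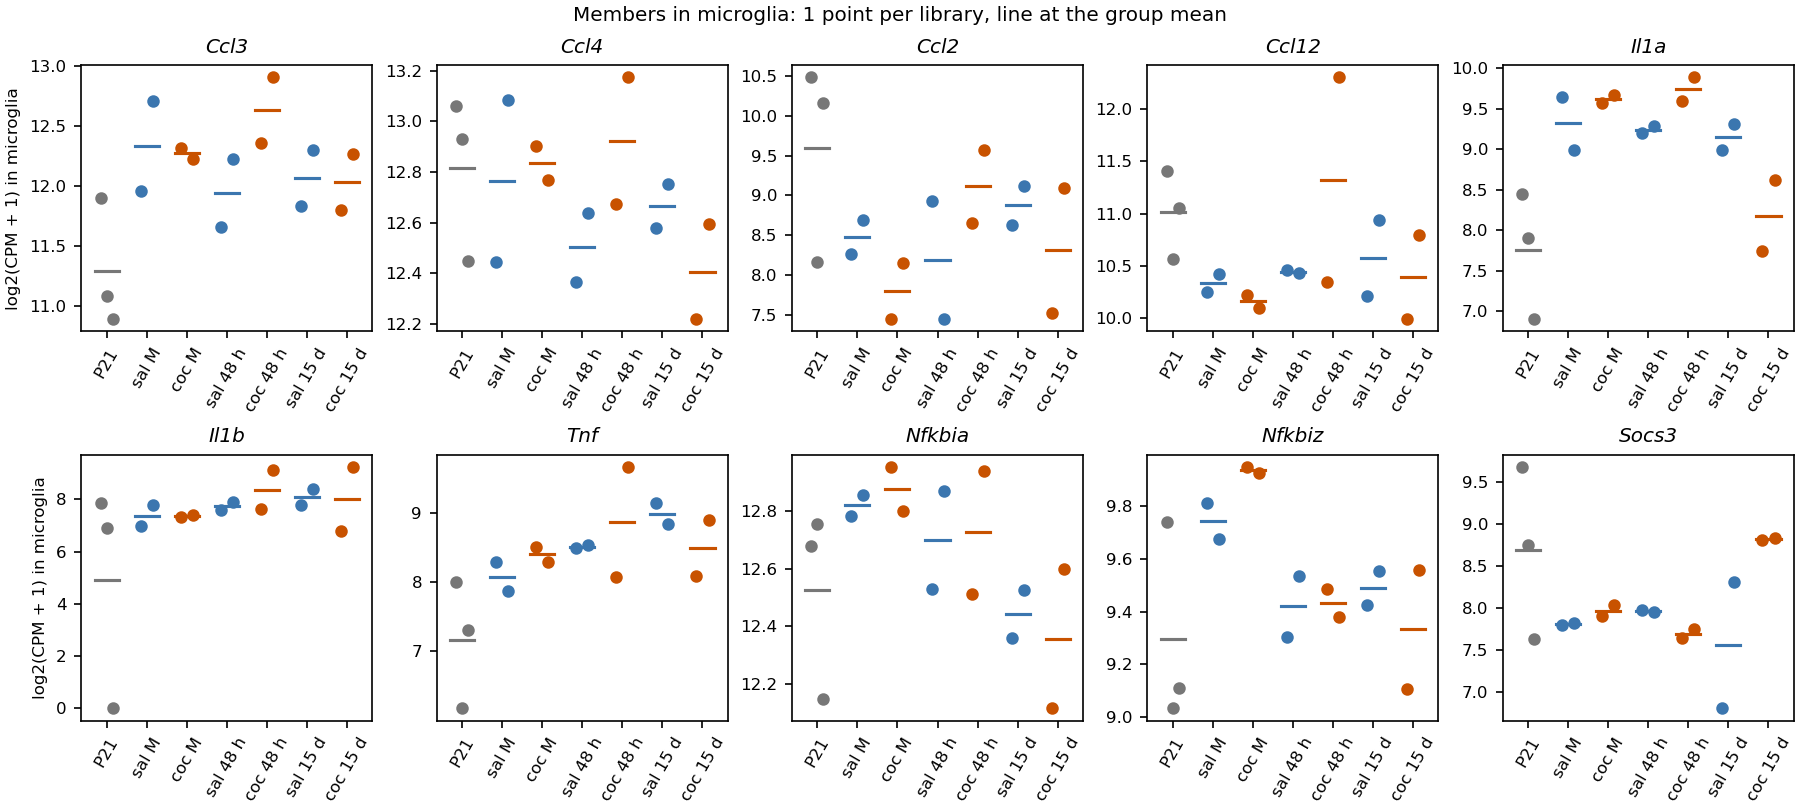
Level of each member in microglia as log2(CPM + 1), 1 point for each library and a line at the group mean, for P21 (grey), saline (blue) and cocaine (orange) at maintenance (M), 48 h and 15 days (d) of withdrawal. The vertical axes differ between genes and do not start at 0, and no member was called between saline and cocaine, with the highest point of Ccl12 (5050 CPM) in library 8.

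At maintenance no microglial member was called. Ccl3 was at 5100 and 4780 CPM in cocaine libraries and at 3975 and 6670 CPM in saline libraries, and Il1a at 761 and 816 against 802 and 507 CPM. Ccl2 was at 174 and 283 CPM with cocaine and at 307 and 411 CPM with saline, a log2 fold change of -0.61 (SE 0.67, edgeR adjusted p = 1). Groups of 4 of 10 members did not overlap (Nfkbiz and Socs3 higher, Ccl2 and Ccl12 lower with cocaine), where 32.0% of all genes tested in microglia did not. Macrophages of the brain borders were nearly absent from the cocaine microglia of this time point. Their 7 markers summed to 2.28 and 2.098 CPM in libraries 1 and 4 and to 440.6 and 562 CPM in the saline libraries 2 and 3, and Mrc1, Ms4a7 and F13a1 were called lower. Their part in the member values was not tested.

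At 48 h of withdrawal 9 of 10 members had higher fitted levels in cocaine microglia, a median log2 fold change of 0.54 against -0.00052 over all genes tested. Without library 8 the count was 5 of 10 and the median 0.02. At maintenance 7 of 10 were higher, with a median of 0.09, and at 15 days 2 of 10, with a median of -0.17 that became 0.13, with 7 higher, without library 9. Ccl3 was at 5245 and 7664 CPM with cocaine and at 3223 and 4781 CPM with saline, with no overlap, a log2 fold change of 0.70 (SE 0.30, edgeR adjusted p = 1, from 0.0390). Ccl4 was at 6540.4 and 9243 CPM against 5277 and 6384 CPM, a log2 fold change of 0.45 (SE 0.21, edgeR adjusted p = 1, from 0.0464). Groups of 4 members did not overlap (Ccl3, Ccl4 and Il1a higher, Socs3 lower), and neither did those of 33.4% of all genes.

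Library 8 was the high one of the cocaine pair for most members. Ccl12 stood at 5050 CPM in it and at 1304 CPM in the other cocaine library, against 1407 and 1379.6 CPM with saline, and its log2 fold change of 1.19 (SE 0.63, edgeR adjusted p = 1) became -0.06 without library 8 and 1.86 (adjusted p = 0.0269) without library 6, the lone cocaine library 8 then being assumed to vary like the other groups. Il1b was at 549 and 198 CPM in libraries 8 and 6, Tnf at 814 and 268 CPM and Ccl2 at 759 and 403 CPM. The 8 markers of monocytes and neutrophils summed to 2347 CPM in library 8 and to at most 551 CPM in any other library, with S100a8 at 1222 CPM and S100a9 at 609 CPM. With 10 of its 111 microglia removed because they carried a marker of other immune cells, Ccl12 in library 8 was 5150 CPM, Tnf 886 CPM, Il1b 517 CPM and Ccl2 568.1 CPM.

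Endothelial regulators were also higher at 48 h without being called. Nfkbia was at 1769 and 2444 CPM in the cocaine libraries 6 and 8 and at 1470.5 and 1687 CPM in the saline libraries, with no overlap. The log2 fold change was 0.49 (SE 0.16, edgeR adjusted p = 0.626, from 0.00666). With a library left out it lay between 0.19 and 0.72, and that of Nfkbiz between 0.33 and 0.58. Nfkbiz was at 122 and 98.2 CPM against 81.1 and 86.4 CPM, a log2 fold change of 0.46 (SE 0.22, edgeR adjusted p = 0.895, from 0.0478), also with no overlap. Of all genes tested in this class 32.5% did not overlap. Socs3 had a log2 fold change of 0.46 (SE 0.42) and its groups overlapped.

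At 15 days of withdrawal Il1a and Socs3 differed in opposite directions in microglia. Il1a was at 213 and 392.2 CPM in the cocaine libraries 9 and 10 and at 507 and 634 CPM in the saline libraries 11 and 12, with no overlap, on 102 and 301 UMIs. Its log2 fold change was -0.96 (SE 0.27, edgeR adjusted p = 0.931, from 0.00204). At maintenance and at 48 h the log2 fold change of Il1a had been 0.29 (SE 0.25) and 0.52 (SE 0.25), and the difference between time points had an edgeR adjusted p of 0.939, from 0.00153, and of 0.0169 with no filter on low counts.

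Socs3 was at 446 and 454 CPM with cocaine and at 111 and 315 CPM with saline at 15 days, with no overlap, a log2 fold change of 1.02 (SE 0.31, edgeR adjusted p = 0.931, from 0.00393). Without library 12, the higher saline library, the log2 fold change was 2.02 with an edgeR adjusted p of 0.000721, the lone saline library then being assumed to vary like the other groups. Only these 2 of the 10 members did not overlap, where 28.8% of all genes did not.

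Among the 14 immediate-early and stress genes listed, Junb and Ier2, and in microglia also Jund, had the same order of groups as Socs3 in the 15-day libraries. In microglia Junb was at 2914 and 3999 CPM in the cocaine libraries and at 668 and 2557 CPM in the saline libraries 11 and 12, and Ier2 at 992 and 1407 CPM against 179.7 and 923 CPM. The same order of libraries was seen for Socs3 in endothelial cells, at 198 and 309 CPM with cocaine and 112 and 194 CPM with saline (log2 fold change 0.71, SE 0.35, edgeR adjusted p = 1.00, 0.0242 with no filter, and 1.20 with 0.0456 without library 12), and for endothelial Junb, at 3449 and 3539 against 978 and 2582 CPM. In oligodendrocyte precursors Socs3 was at 272 and 343 CPM with cocaine and 50.8 and 188 CPM with saline. Library 11 was the lowest of the 4 for Socs3 and for Junb in each of these classes. Microglial Jund was at 108 and 223 CPM with cocaine and at 59.9 and 103 CPM with saline. Other genes of the list did not follow Socs3 in microglia. Fos was lower with cocaine, at 4406 and 5376 against 5311 and 5548 CPM in microglia, where the groups overlapped, and at 9112 and 9875 against 10317 and 10637 CPM in endothelial cells, where they did not. Microglial Jun (654 and 677 against 484 and 707 CPM) and Atf3 (2030.1 and 2615 against 1981 and 2822 CPM) overlapped. In microglia 6 of the 13 that passed the filter had fitted values above 0 and 7 below, with a median of -0.06 against -0.02 over all genes tested. The part of Junb, Ier2 and Jund in the Socs3 values was not tested.

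For the difference between time points, Nfkbia in endothelial cells (edgeR unadjusted p = 0.0109) and Socs3 in microglia (0.0248) were also under 0.05, and neither was called. Members in the other classes, most of them scarce there, gave further unadjusted p-values. In excitatory neurons Ccl4 had a log2 fold change of -0.83 at 15 days (SE 0.27, edgeR adjusted p = 0.253, from 0.00718, and 0.0141 with no filter) and Ccl3 one of -0.72 (SE 0.30, adjusted p = 0.533), on 168 and 138 cocaine UMIs. Nfkbia in oligodendrocyte precursors had one of 1.28 at 15 days (SE 0.56, edgeR adjusted p = 0.995), where library 10 stood at 388 CPM and the other 3 libraries between 60.0 and 101 CPM, and without library 9 it was 2.19 with an adjusted p of 0.0133, the lone cocaine library 10, far from the other cocaine libraries of this class, then being assumed to vary like the other groups. In endothelial cells at maintenance Ccl12 had 0 UMIs in the cocaine libraries and 16 in the saline libraries, 15 of them in library 3 and 1 in library 2, where a count of 0 allows up to 3.

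**Figure D5:**
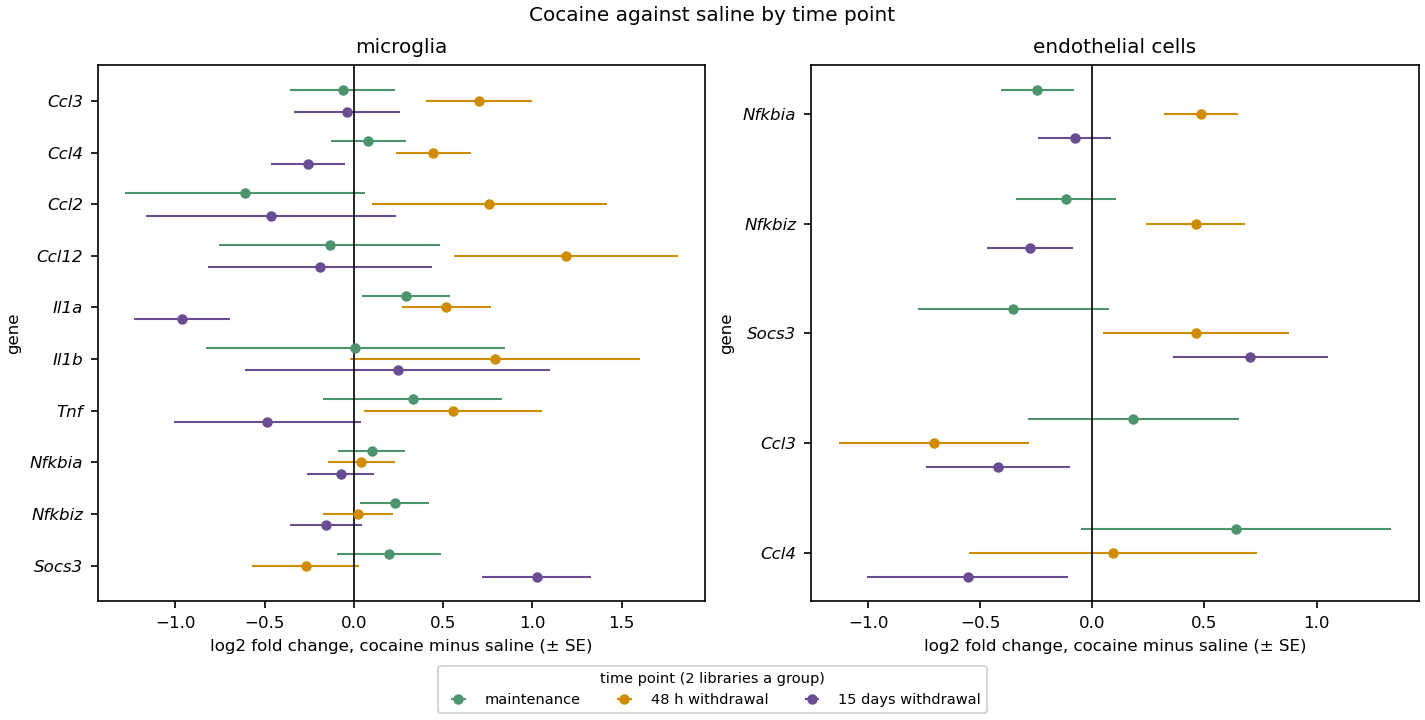
Log2 fold change of cocaine against saline with its standard error in microglia (left, 10 members) and endothelial cells (right, 5 members) at maintenance, 48 h and 15 days of withdrawal, with 2 libraries in each group. Most intervals of 1 standard error reach or approach 0, and the points farthest out for their error are Il1a at -0.96 and Socs3 at 1.02 in microglia at 15 days and Nfkbia at 0.49 in endothelial cells at 48 h.

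Averaged over the 3 time points, the microglial log2 fold changes of the 10 members lay between -0.10 (Ccl2, SE 0.39) and 0.35 (Il1b, SE 0.48), with Socs3 at 0.32 (SE 0.17) and Nfkbia at 0.02 (SE 0.11). The errors of Nfkbia, Nfkbiz (0.03, SE 0.11) and Ccl4 (0.09, SE 0.12) were the smallest, and those of Ccl2, Ccl12 (0.29, SE 0.36) and Il1b were wider. Of the 5 lists of pathway genes edgeR called no gene in any class at any time point. In microglia all 8 NF-κB subunits and signalling genes that passed the filter had fitted values below 0 over the 3 time points, with a median of -0.21 against -0.01 over all genes tested and the smallest adjusted p at 1.00.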

How the data were processed

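Single-cell RNA-seq (10x Chromium, 3' UMI counts) had been performed by the authors on papain-dissociated PFC, with reads aligned to mm9 by Cell Ranger and cells filtered and clustered in Seurat 2.1.0. Cells rich in mitochondrial transcripts, probable doublets and cells with few genes had been removed by the authors, and no doublet caller was run here. One label field names the nucleus accumbens as tissue where titles and protocol name the PFC. The mitochondrial fraction of each cell was deposited by the authors and not used further. The deposited UMI counts per gene and cell and the deposited cell classes and clusters were used. Cells were kept where class and cluster agreed, a choice made after the files were seen. Counts were summed per library and class for libraries with at least 10 cells of the class.

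Sums were tested, without 13 mitochondrial and 144 ribosomal protein genes (25988 genes kept), with edgeR 4.0.16 (R 4.3.3; TMM, filterByExpr, robust quasi-likelihood test, Benjamini-Hochberg adjustment over all genes of a class; tested on simulated data), and DESeq2 1.42.0 was an alternative. Groups came from the sample labels. The 3 P21 libraries came from 4 mice and nothing says that they were separate pools, so p-values may measure technical spread. Standard errors carry the spread between libraries, and the limit given for a count of 0 covers counting error only. Promoters were from RefSeq, positions from NCBIM37, and blastn 2.17.0 gave transcript identities. All 10 members are named in every class, and of other lists at most the 3 called genes with the largest rise and fall per comparison and class, with the 3 genes most like each member and the 5 most like their mean in microglia. Genes named from microglial and endothelial clusters, and Junb and Jund by library, were chosen after their values were seen. The members and lists were chosen with earlier results of these data known.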

Additional observations from a re-analysis of the deposited data

Results flagged for a closer look

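Levels of single libraries were compared within the saline and within the cocaine P60 libraries of each class by Dixon's test, which chance passes in about 1 of 20 groups, and 14 of 74 groups had a library far from the others. In microglia Ccl12 stood apart at 1962 CPM in library 12 among saline libraries and at 5050 CPM in library 8 among cocaine libraries. In endothelial cells the libraries that stood apart were library 2 for Ccl2 (34.3 CPM) and library 10 for Ccl12 (16 CPM) and Il1b (20.01 CPM). Library 12 stood apart for Ccl4 in astrocytes (38.7 CPM), for Socs3 in oligodendrocyte precursors (188 CPM), for Ccl3 (127 CPM, 33 UMIs in 1 cell) and Ccl4 (87.4 CPM, 23 UMIs in 1 cell) in newly formed oligodendrocytes and for Ccl12 in excitatory neurons (1.11 CPM). The others were Nfkbia in oligodendrocyte precursors of library 10 (388 CPM), Ccl4 in newly formed oligodendrocytes of library 6 (521 CPM, all 52 UMIs in 1 cell), Nfkbia in mature oligodendrocytes of library 8 (207 CPM) and Ccl3 in excitatory neurons of library 1 (0.923 CPM).

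A signal was also present in cells the comparisons leave out. At P21, 147 cells were microglia by the deposited class and belonged to another class by cluster, and Ccl4 stood at 1072 CPM in them, against 8306 CPM in the 182 microglia on which both agreed. The same cells held C1qa at 1741 CPM and the neuronal gene Snap25 at 1959 CPM, with a median of 6503 UMIs.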

How the results depend on the processing

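The 2 age calls became 4 with DESeq2, 9 with no filter on low counts, 10 with classes by cluster alone, 12 with classes by class column alone, 4 with all 12 P60 libraries, 1 with the 15-day saline libraries alone, 1 with P21 libraries 2 and 3 summed, and 2 to 6 with a library left out. Without P21 library 1 there were 6. The choices of class by cluster or class column were added after the data were seen. By class column alone all microglial members but Ccl2 and Socs3 were among the calls, where 42.3% of all genes in microglia were called. In the main fit and by cluster alone that share was 0.726%. Shares of all genes are not given for the other settings, so these counts are no result about the members. Age calls included lower Ccl12 in excitatory neurons by cluster alone (-2.61), by class column alone (-1.43), with all 12 P60 libraries (-1.04) and without P21 library 2 (-1.65) or 3 (-1.62), and lower Ccl4 and Ccl12 in endothelial cells by cluster alone (-2.14 for both). By cluster alone Ccl4 (-3.97) and Nfkbia (-0.60) were also called lower in mature oligodendrocytes and Nfkbiz (-0.94) and Nfkbia (-0.64) in excitatory neurons, and with no filter Socs3 in mature oligodendrocytes (-2.79) and Ccl2 in excitatory neurons (-1.55). The classes by cluster alone hold P21 cells that the class column names microglia, 12 of them in mature oligodendrocytes, with Ccl4 at 1677 CPM. At P60 only 1 such cell was added, an excitatory neuron by cluster. The part of these cells in the calls by cluster alone was not tested. Without P21 library 1 Ccl3 (2.32) and Ccl4 (1.36) were called higher in excitatory neurons. With no filter 1 pair was called at maintenance (Ccl12 in endothelial cells), 2 at 15 days, 1 over the 3 time points and 2 for the difference between time points. With a library left out the counts were 0 at maintenance, 0 to 1 at 48 h, 0 to 2 at 15 days and 0 to 1 for the difference. Without library 6 Ccl12 in microglia was called at 48 h (log2 fold change 1.86, adjusted p = 0.0269), without library 12 Socs3 at 15 days in microglia and endothelial cells, and without library 9 Nfkbia in oligodendrocyte precursors. Without library 12 a count includes Socs3 in oligodendrocyte precursors, with a single P21 library (-3.74, adjusted p = 0.0311). With the class column alone, directions turned in microglia by age for Ccl2 (0.51), Socs3 (0.28), Ccl4 (1.70) and Ccl12 (1.04). They also turned for Ccl3 in endothelial cells by age with clusters alone (-0.0288) and for Ccl12 in microglia at 48 h without library 8 (-0.0577). Socs3 in astrocytes lost its call under 5 alternatives and had no value under 3 more, without library 2, 11 or 12. With cells thinned to 1000 UMIs the shares of P60 microglia were 71.1% for Ccl3, 68.6% for Ccl4, 47.9% for Ccl12, 46.5% for Il1a, 23.7% for Tnf, 94.0% for Nfkbia, 51.5% for Nfkbiz and 21.8% for Socs3. No paired analysis was possible because the labels give no replicate numbers shared between groups. Depth limits Socs3 in astrocytes (93 UMIs in all) and all ligands outside microglia, and with 2 libraries a group single libraries decide values.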
